A study of Mus musculus with 2 samples.

Results

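The mir-379 to mir-410 cluster is a run of microRNA (miRNA) hairpins in the imprinted Dlk1-Dio3 domain of mouse chromosome 12. Its members were taken by position, as every miRNA gene of both count tables in a fixed window of chromosome 12. Earlier results of these data were known when the members were chosen. They run from Mir379 to Mir3072 (mm10, 109709060 to 109747960, 38.9 kb, positions from GENCODE M21). There were 38 members among 1973 miRNA genes, and all read the plus strand. For 34 the reads on the strand of the listed gene were used. The other 4, Mir299a, Mir380, Mir376a and Mir409, had no row of their own and were read from the opposite-strand column of the minus-strand rows at the same place (Mir299b, Gm25750, Gm25252 and Gm24321). Mir376b was not analysed here.

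The libraries were 2 biological replicates of 1 group, midbrain of B6NCrl mouse embryos at day 16.5, each from pooled male and female embryos (37 embryos for replicate 2). Short RNA inserts were sequenced, and the labels name no treatment or mutant. With 1 group, the questions open to these data were how many reads each hairpin's products had, and how far the pools differed. Levels are counts per 1000000 sense-strand miRNA reads (CPM), and these reads numbered 6151299 in replicate 1 and 5312642 in replicate 2. A read is 1 small RNA, so levels were not divided by gene length. How evenly different small RNAs were turned into reads was not tested, so levels of different hairpins compare reads and not molecules. Each value counts the reads of a whole hairpin, so its 5p and 3p arms were not separated. In pooled tissue, fewer cells of a type and less miRNA per cell cannot be told apart.

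As background, the members of this cluster are cut from long noncoding transcripts made from the maternally inherited chromosome, while the paternal copy is silent. Drosha and Dicer release from each hairpin a 5p and a 3p strand, and the seed, bases 2 to 8 of a strand, sets most of its mRNA targets. The cluster is found in placental mammals and is known for high expression in brain, where Mef2 transcription factors drive it in active neurons. Several of its miRNAs act on dendrites, spines and synapses, and mice without the cluster have metabolic and behavioural defects.

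The strands of the 6 most abundant members are shown first, since these members held most of the cluster's reads. Mature sequences are from RefSeq (GRCm38.p6, plus strand of chromosome 12), where 37 of 38 members had at least 1. The strands miR-487b-3p, miR-376c-3p, miR-539-3p and miR-485-5p are named only, so the 69 strands used here are not the full set. Capitals mark the seed.
miR-487b-5p: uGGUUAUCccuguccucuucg
miR-369-5p: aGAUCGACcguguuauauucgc
miR-369-3p: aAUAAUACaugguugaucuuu
miR-382-5p: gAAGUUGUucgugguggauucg
miR-382-3p: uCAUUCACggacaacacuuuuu
miR-411-5p: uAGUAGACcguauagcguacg
miR-411-3p: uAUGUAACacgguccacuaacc
miR-376a-5p: gGUAGAUUcuccuucuaugagu
miR-376a-3p: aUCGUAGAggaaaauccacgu
miR-409-5p: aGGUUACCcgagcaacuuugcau
miR-409-3p: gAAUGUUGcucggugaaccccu

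The cluster was abundant in both pools. Of the miRNA reads that were counted, its hairpins held 9.91% in replicate 1, with bounds of 9.89 and 9.94 by Wilson's method at 95%. In replicate 2 they held 10.3%, with bounds of 10.2 and 10.3, and the mean was 10.1% ± 0.25 (SD, n = 2). These bounds cover counting error only. Reads aligning to several places, 35.3% and 36.5% of all reads, are not in the counts. Shares, levels and ranks are therefore among counted reads only. For this share the reads of the 4 opposite-strand places stood in the numerator and the denominator. They were 13.6% and 12.1% of the cluster's reads, and with plus-strand rows alone the share was 8.91% ± 0.32. Counting a gene as detected at 10 or more reads in each library, 34 of 38 members (89.5%) were detected, and 415 genes (21%) over all 1973. The detected members had a median of 661 CPM, against 118 CPM for all detected genes, and over all 38 members the median was 374 CPM.

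A single hairpin dominated. Mir487b (chr12:109727333-109727414) reached 39562 CPM in the first pool and 43231 CPM in the second, which placed it at rank 4 of the 415 detected genes. It held 39.4% and 41.6% of the cluster's reads. Without it the cluster's share of counted miRNA reads was 6.0%. The 5 most abundant members together held 70.9% ± 2.11 of the cluster and the first 10 held 89.7% ± 0.81, so the other 28 shared the rest.

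Mir369 (chr12:109743418-109743496) followed at 8749 and 10835 CPM, the values of replicates 1 and 2 in this order here and below. Mir382 (chr12:109733771-109733846) stood at 8102 and 8560 CPM, both below both values of Mir369. Mir411 (chr12:109710175-109710256) stood at 7039 and 6933 CPM. Mir376a (chr12:109723781-109723848) stood at 6249 and 5649 CPM, and Mir409 (chr12:109743158-109743236) at 5701 and 5424 CPM. Mir376a was above Mir409 within each library, though its value in replicate 2 was below that of Mir409 in replicate 1. Hairpins of the mir-376 group are known substrates of adenosine-to-inosine RNA editing in brain, and the counts do not separate edited from unedited reads.

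Mir381 stood at 5009 and 4640 CPM, Mir541 at 4356 and 3772 CPM, Mir379 at 2924 and 2827 CPM and Mir154 at 1876 and 1965 CPM. These completed the first 10. Of the 38 members, 13 had a mean of 1000 CPM or more and 28 of 100 CPM or more. Among all detected genes, 2 members were in the first 20, 7 in the first 50 and 14 in the first 100.

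In order of mean level, 23 of the 33 steps from one detected member to the next separated both libraries of the higher from both of the lower. In the other 10 the values interleaved across libraries, though the order within each library could still be the same. Mir412, Mir495, Mir410 and Mir668 formed the longest such stretch, all between 153 and 164 CPM in every library. Mir380, Mir1193 and Mir543 formed another, with means of 912, 868 and 836 CPM.

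**Figure D1:**
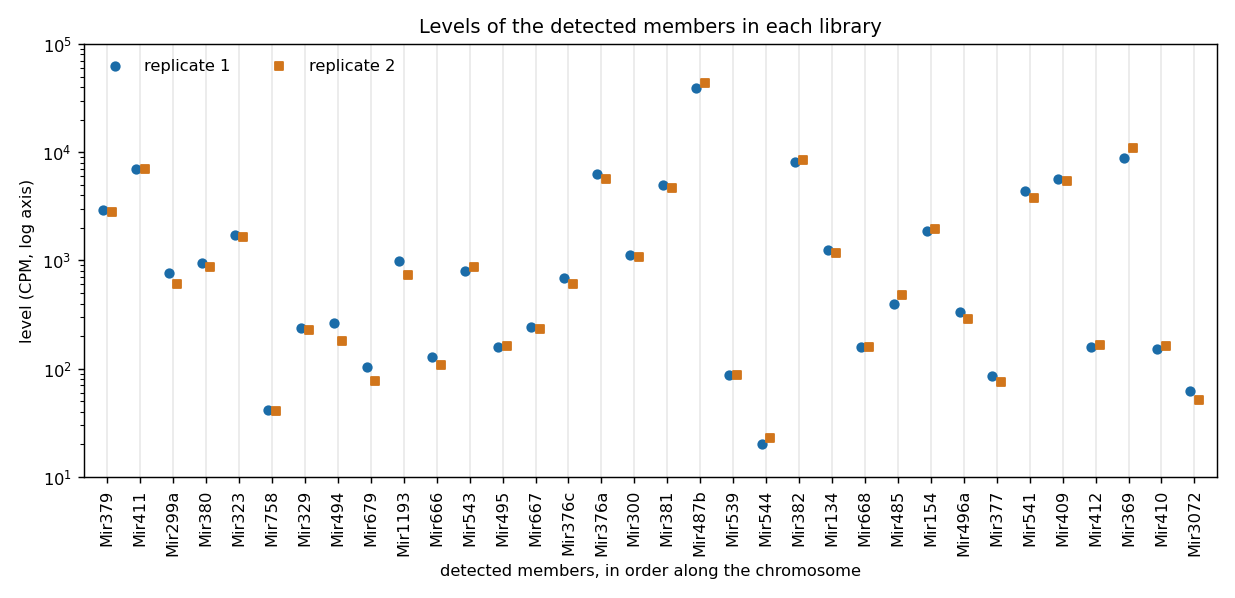
Level of each of the 34 detected members in replicate 1 (blue circles) and replicate 2 (orange squares), in CPM on a log axis, in their order along the chromosome. Levels differ widely between members, from Mir487b at 41396 CPM to Mir544 at 21.5 CPM on average, while the libraries nearly coincide.

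At the lower end, Mir544 stood at 20.3 and 22.8 CPM, Mir758 at 41.1 and 40.7, Mir3072 at 62.4 and 51.8, and Mir377 at 85.2 and 75.9 CPM. These were the 4 lowest detected members, and their libraries were alike beside the steps between members. Mir1197 had 8 and 11 reads (1.3 and 2.07 CPM) and missed detection in 1 library. Gm27379, a gene model without a mature sequence here, had 2 and 0 reads. Mir654 and Mir453 had 0 reads in both libraries, which allows up to 0.488 CPM in replicate 1 and 0.565 CPM in replicate 2 (3 reads). These limits cover counting error only, and reads that align to several places are not in the counts.

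Hairpins next to each other on the chromosome differed widely in level. Between Mir541 and Mir410, Mir409 (mean 5563 CPM), Mir412 (162 CPM) and Mir369 (9792 CPM) are separated by 52 and 49 bases. Mir412 was thus 34.3-fold below the hairpin before it and 60.4-fold below the one after it. Mir410, 218 bases past Mir369, stood at 158 CPM, which was 62.0-fold below Mir369. Near the middle, Mir539 lies 714 bases past Mir487b and stood at 87.3 CPM, a 474-fold step. Mir323 (1693 CPM) and Mir758 (40.9 CPM), 216 bases apart, differed 41.4-fold.

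Over the 33 pairs of neighbouring detected members, the median difference in level was 2.49 on the log2 scale. Over all 561 pairs it was 2.71. For the 12 pairs under 500 bases apart it was 3.18, so the nearest hairpins were no more alike in level. Level had no trend along the cluster either (Spearman's rho with position -0.05, Pearson's r of log2 level 0.01, over 34 members that share the libraries, given as a description). In GENCODE M21, 14 members lie within Mirg, a long noncoding RNA gene over the distal part, and 24 lie between annotated genes of their strand. Detected members inside Mirg (9 overlapping an exon, 4 in an intron) had a median of 439 CPM, and the 21 outside had 680 CPM.

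Members known from work on neurons were present at moderate to high levels. Mir134, whose product limits dendritic spine size through the kinase Limk1, stood at 1259 and 1165 CPM. Mir381 and Mir329, which like Mir134 are needed for activity-dependent dendrite growth, stood at 5009 and 4640 CPM and at 236 and 225 CPM. Mir485, whose product acts at synapses on the vesicle protein SV2A, stood at 398 and 479 CPM. With Mir379 these 5 had a median of 1212 CPM. The 3 members known to target N-cadherin in neural progenitors spanned a wider range, with Mir369 as above, Mir543 at 797 and 875 CPM and Mir496a at 331 and 289 CPM.

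Seeds shared between members were few. Among 69 mature strands, 5 seeds occurred in 2 members each, which involved 9 members and 10 strands. Each of these 5 seeds was in no other mouse miRNA of the RefSeq table. A further 12 member strands had a seed that also occurs in mouse miRNAs outside the members, such as miR-376c-5p with miR-376b-5p. Strands that are named only were not compared. The 5 pairs of members are shown because members with a common seed are expected to share targets.
miR-379-3p: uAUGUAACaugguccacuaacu
miR-411-3p: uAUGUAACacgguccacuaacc
miR-379-5p: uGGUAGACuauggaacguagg
miR-1193-5p: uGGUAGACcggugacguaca
miR-494-5p: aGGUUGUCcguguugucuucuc
miR-410-5p: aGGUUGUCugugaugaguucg
miR-1197-5p: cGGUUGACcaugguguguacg
miR-758-5p: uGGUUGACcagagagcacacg
miR-453: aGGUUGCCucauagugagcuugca
miR-496a-5p: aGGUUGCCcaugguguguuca

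The 3p strands of Mir379 and Mir411 were alike in 20 of 22 bases, with U10C and U22C counted from the 5′ end of miR-379-3p. Their hairpins are neighbours and stood at 2876 and 6986 CPM on average. Mir379 also shares its 5p seed with Mir1193, at 868 CPM. Mir494 and Mir410 differed 1.40-fold in mean level (222 and 158 CPM). In the remaining pairs 1 partner was nearly absent, with Mir758 at 40.9 CPM beside Mir1197 at 1.69, and Mir496a at 310 CPM beside Mir453 at 0 reads. As arms were not counted apart, these are levels of hairpins and not of the strand with the seed.

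Short words also recurred near the 5′ end, some at the same place and some at shifted places. Several of the strands that hold them are those of the seed pairs above. The word AGGUUG stood within the first 9 bases of 5 of the 69 member strands (7.25%), from Mir494, Mir453, Mir496a, Mir377 and Mir410, and in 2 of 1669 other mouse strands (0.12%). UAUGUA did so in 3 member strands (miR-379-3p, miR-411-3p and miR-380-3p) and 1 other strand, GUUGAC in 3 (miR-380-5p, miR-1197-5p and miR-758-5p) and AAGUUG in 3 (miR-543-5p, miR-495-5p and miR-382-5p), the last pair of words in 0 other strands. GUAGAC did so in 3 (miR-379-5p, miR-411-5p and miR-1193-5p), and in 3 other strands as well. In whole hairpins, UCGCUUUA was in 5 of 35 member hairpins (14.3%) and in 0.498% of all mouse hairpins of the table, that is in none of the 970 outside the cluster. GGUACUU was in 6 (17.1%) against 0.995% of all, and GACGAA in 6 against 0.796% of all. The other words searched were also found in many hairpins outside the cluster. UACUUG, which can overlap GGUACUU, was in 10 member hairpins and 16 others, AGUAUC in 6 and 15, and AGGUUG in 6 and 32. Words were searched on the strand of the miRNA only, as exact matches, and were chosen after the sequences were seen.

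Sequence that 2 places share bears on what could be counted, since the layout of the tables is that of a counter which leaves out reads aligning to several places. The run of bases that a member hairpin shares with any other hairpin had a median of 13 bases over 35 hairpins, and 5 hairpins shared 20 or more. Mir376c shares 31 bases with Mir376b, and Mir299a shares 21 with Mir299b, which is annotated on the other strand of the same place. Mir411 and Mir758 share 21 bases, and Mir487b shares 20 with Mir376b. The strands of the first pair of cases are printed to show this.
miR-376c-5p: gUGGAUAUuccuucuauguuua
miR-376b-5p: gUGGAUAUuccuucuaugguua
miR-299a-5p: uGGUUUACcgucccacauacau
miR-299b-5p: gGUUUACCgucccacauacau
miR-299a-3p: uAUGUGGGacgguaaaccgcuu
miR-299b-3p: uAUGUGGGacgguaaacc

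The strands miR-376c-5p and miR-376b-5p differ only at U19G, counted from the 5′ end of miR-376c-5p, so a read that ends before base 19 aligns to both hairpins. Mir376c stood at 682 and 602 CPM from the reads that could be placed. The whole of miR-299b-5p is contained in miR-299a-5p from base 2, and miR-299b-3p in miR-299a-3p from base 1. Mir299a stood at 758 and 602 CPM, again from reads placed at 1 site. How many reads were left out at these members was not tested, since such reads are not listed by gene. They were 35.3% and 36.5% of all reads in the libraries.

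The hairpins of the cluster were poorer in G and C than other mouse hairpins and folded about as stably. Their median GC content was 43.4% (29.1 to 72.3, 35 hairpins), against 51.9% over 970 others. The predicted folding energy had a median of -0.41 kcal/mol per nt in the cluster and -0.40 in the others. Of the mature strands, 37.7% began with A and 5.80% with C, against 25% and 21% of other mouse strands. Within the cluster these features did not follow level. Spearman's rho with mean CPM was -0.14 for GC content, 0.17 for folding energy per nt and 0.01 for hairpin length over 32 detected members, as descriptions.

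**Figure D2:**
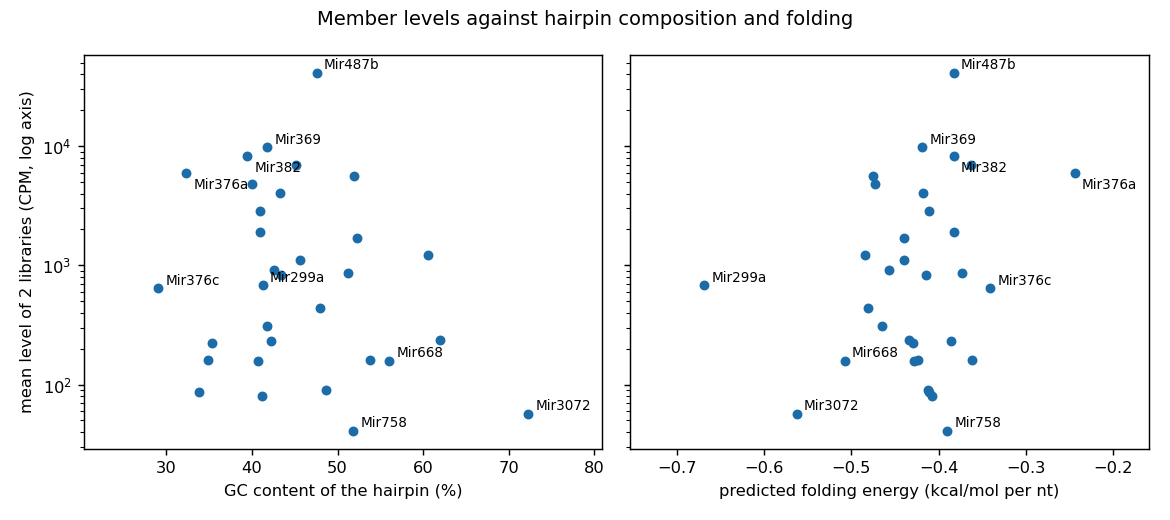
Mean level of 32 detected members with a hairpin sequence (CPM, log axis) against the hairpin's GC content in percent (left) and its predicted folding energy in kcal/mol per nt (right). Each point is 1 member, and neither panel shows a trend (rho -0.14 and 0.17). Mir376a folds least stably and Mir299a most stably of these hairpins.

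The pools agreed closely within the cluster. The libraries were less than 1.2-fold apart at 27 of 34 detected members, and at 65.1% of all detected genes, which include many of low count. No member passed 1.5-fold, a size that 10.4% of all detected genes passed, or 1.87% of the 214 genes at 100 CPM or more. At 100 CPM or more, 2 of 28 members differed by 1.3-fold or more, Mir494 and Mir1193, against 9.81% of such genes. The share of members is thus near the background of genes of like level.

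The reads of each gene were also set against the library totals by an exact binomial test (two-sided, Benjamini-Hochberg over 415 genes). It says how these libraries differ and nothing of conditions, and it knows no error but that of counting, so deep counts pass at small differences. By it 22 of 34 members were called, against 48% of all detected genes. All 34 had 50 or more reads in each library, and of the 313 genes at that depth 60.4% were called. The share of members is thus near that of genes of like depth. Replicate 1 was higher at 16 members (29.9% of all genes were called in this direction) and replicate 2 at 6 (18.1%). Of the 313 genes with 50 or more reads in each library, 116 were called as higher in replicate 1 and 73 in replicate 2. Among the 22 calls of members, 15 were less than 1.2-fold. With TMM factors the split was 11 and 7 among members and 97 and 90 among all 415 genes. With RLE size factors it was 10 and 7 among members and 95 and 95 among all genes, against 124 and 75 by summed sense counts. When a biological coefficient of variation of 0.2 was assumed in edgeR's exact test, which allows for spread between pools, 0 members were called (1.45% of all genes), and 0 had an unadjusted p under 0.05. That coefficient was assumed and not estimated from the pools, and with 1 library on each side the 0 calls follow from it. The largest difference of a member was 1.46-fold (Mir494), so nothing is concluded from the edgeR test. The members' median log2 ratio of replicate 2 over replicate 1 was -0.06, the same as that of all detected genes (-0.06).

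The members that differed most between the pools are a set of neighbours. Mir494 had 263 CPM in the first pool and 180 CPM in the second, a log2 ratio of -0.55 (0.68-fold, 95% exact counting interval 0.63 to 0.74). Mir679 stood at 104 and 77.6 CPM (ratio -0.42), and Mir1193 at 995 and 741 CPM (ratio -0.43). These 3 hairpins follow each other within 6.26 to 6.61 kb of the start of Mir379. Mir299a was next at -0.33. All 4 were called as higher in replicate 1 under each of the 3 scalings, as were Mir380, Mir376c, Mir376a, Mir381, Mir496a and Mir541. The calls of Mir379, Mir323, Mir666, Mir134, Mir409 and Mir3072 were lost under at least 1 other scaling.

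Replicate 2 was higher at Mir369 (ratio 0.31), Mir485 (0.27), Mir543 (0.14), Mir487b (0.13), Mir382 (0.08) and Mir154 (0.07), under all 3 scalings. Mir411, Mir758, Mir329, Mir495, Mir667, Mir300, Mir539, Mir544, Mir668, Mir377, Mir412 and Mir410 were not called. Of these, Mir411 was called under another scaling. The ratio of neighbouring members differed by a median of 0.13, and that of all pairs by 0.18. Of the dendrite and synapse members, Mir381 was higher in replicate 1 and Mir485 in replicate 2 under all 3 scalings, Mir379 and Mir134 were called as higher in replicate 1 by summed sense counts but not under every scaling, and Mir329 was not called. Of the N-cadherin members, Mir496a was higher in replicate 1, and Mir369 and Mir543 in replicate 2.

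**Figure D3:**
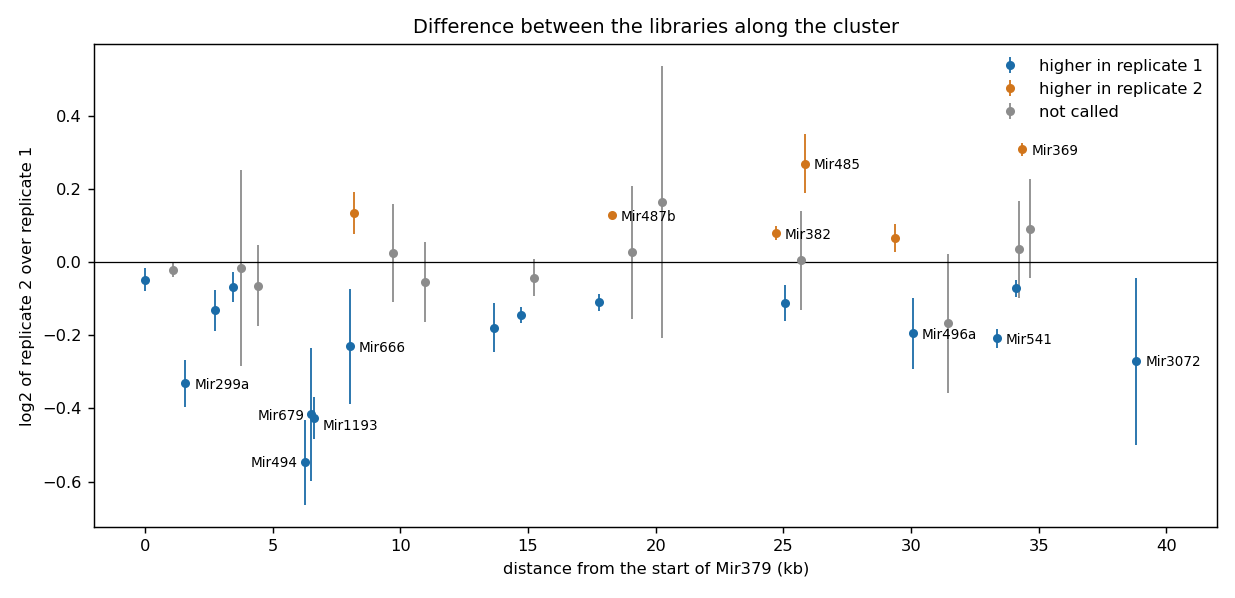
Log2 ratio of replicate 2 over replicate 1 for the 34 detected members against distance from the start of Mir379 in kb. Bars are 95% exact counting intervals, and colours give the call of the exact binomial test. Mir494, Mir679 and Mir1193 lie lowest, between -0.55 and -0.42, and Mir369 highest at 0.31.

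Tissue markers were checked beside these values. Of 13 neural genes with a row, 11 were detected. Together the 13 stood at 27345 and 26446 CPM, led by Mir137 and Mir153 (means of 15108 and 5868 CPM). The 3 mir-124 copies were near 0 (0.54 to 5.04 CPM), and were counted from reads placed at 1 site. Mir9-2 was also near 0 (2.11 and 0.565 CPM), and Mir218-1 and Mir218-2 had means of 23.8 and 35.9 CPM. The remaining neural genes had means from 405 to 2456 CPM. Markers of epithelium summed to 1327 and 689 CPM (7 of 7 detected), of blood to 410 and 487 CPM (4 of 4), of liver to 74.9 and 55.3 CPM (1 of 1) and of muscle to 19.2 and 18.1 CPM (1 of 5, with 3 at 0 reads). The endothelial Mir126a stood at 23067 and 24810 CPM. The epithelial sum was lower in replicate 2, and so was each of its genes. Mir429 stood at 419 and 59.5 CPM, Mir200b at 105 and 17.5, Mir200a at 31.4 and 3.76 and Mir141 at 17.7 and 3.39 CPM. Mir200c fell by a smaller factor than these. Mir203, the highest, changed least at 627 and 546 CPM, and Mir205 stood at 36.3 and 26.9 CPM. The part of these differences in the members' ratios was not tested.

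On the other side of the domain, Meg3 and the antisense strand of Rtl1 hold further miRNAs of the maternal chromosome. Of 18 listed genes with a row, 15 were detected, with a median of 831 CPM, and 2.45% and 2.56% of the summed sense reads. Of the 15, 5 were called as higher in replicate 1 and 4 in replicate 2, beside 29.9% and 18.1% of all detected genes. Mir127, which lies antisense to Rtl1, led them at 9525 and 10677 CPM, followed by Mir434 at 3622 and 3448 and Mir431 at 3126 and 2703 CPM. Mir136 was listed too and had no row under that name. Mir127 held 40.3% of that group's level, and Mir487b held 40.5% of its own. The mir-379 to mir-410 cluster includes opposite-strand reads at 4 places, while the other groups are sense counts only. The spread of levels was taken as the SD of log2 mean CPM over detected genes. It was 2.65 in the mir-379 to mir-410 cluster (2.69 without the opposite-strand places) and 3.24 on the other side. In mir-17-92, a cluster of 6 hairpins known from proliferating progenitors, it was 4.32. Inside an intron of Sfmbt2, another imprinted gene with a large miRNA cluster, 10 of 107 genes were detected and the SD was 3.17, and over all detected genes it was 3.84. These SDs were not tested against each other, since hairpins of 1 transcript are not replicates. Of the 107 Sfmbt2 genes, 84 had 0 reads in both libraries. Reads aligning to several places are not in the counts. Their part in these SDs and in the numbers of detected genes was not tested.

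**Figure D4:**
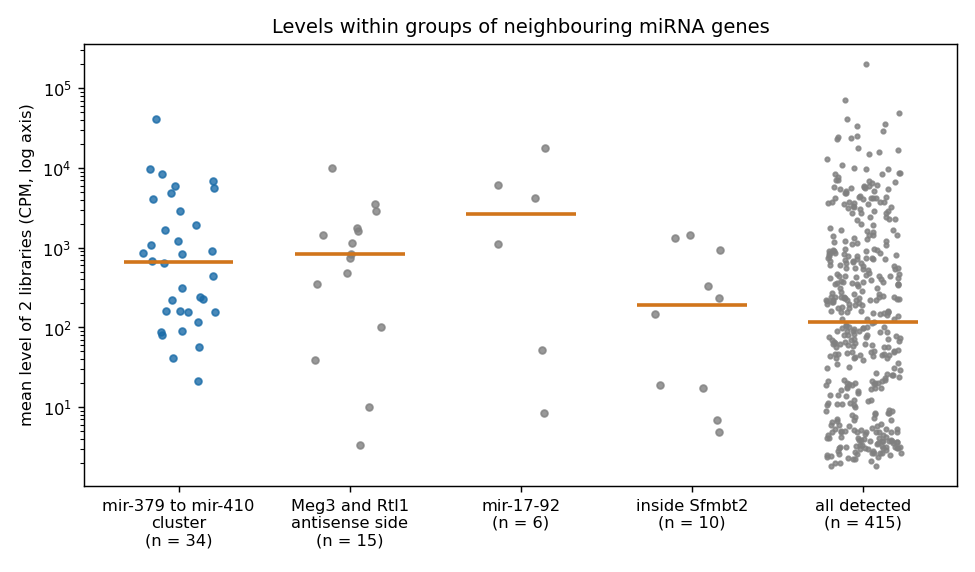
Mean level of the 2 libraries (CPM, log axis) for the detected genes of the mir-379 to mir-410 cluster (blue), of 3 other groups of neighbouring miRNA genes and of the whole table (grey). Each point is 1 gene and orange lines are medians. The cluster's 34 genes run from 21.5 to 41396 CPM with a median of 661 CPM.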

How the data were processed

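MicroRNA-seq had been done on 2 libraries of embryonic midbrain. The authors deposited raw read counts per miRNA gene (either, sense and opposite strand) on mm10 with GENCODE M4, per the description deposited beside the tables. The aligner, counter and trimming are not given in the sources used here. Rows that name no gene (54.9% and 55.8% of reads, on the sense count) stayed out of library sizes. Names and positions came from GENCODE M21 (same assembly), which matched 1894 of 1973 genes. For 4 minus-strand rows the opposite-strand count was used in place of the sense count, outside the CPM denominator. Other opposite-strand places were not added.

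Scaling was by summed sense counts. Alternatives were TMM (edgeR 4.0.16), RLE size factors (DESeq2 1.42.0), other read minimums, member sets and single libraries. Ratios had 0.5 reads added to each count. Adjusted p-values are Benjamini-Hochberg at 0.05. With 1 group no quasi-likelihood contrast existed. In simulated libraries with counting error only (418 genes tested), the binomial test called 3.11% of unchanged genes. It recovered 44% of genes changed 1.1-fold, 70% at 1.3-fold, 74% at 1.5-fold and 90% at 2-fold. No spread between pools was simulated, so these rates do not carry over to the real pools. Folding used RNAfold 2.7.2. Python 3.11.15, scipy 1.17.1 and R 4.3.3 were used.

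Named members were the 10 highest, the 4 lowest detected, those read from the opposite strand, those under 10 reads in a library, those at 100 CPM or more that differed 1.3-fold or more, and the listed roles. Members and lists were chosen with earlier results of these data known. The labels call the libraries biological replicates.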

Additional observations from a re-analysis of the deposited data

Results flagged for a closer look

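Reads were present on the minus strand of Mir299b itself, which no value above uses. They numbered 9 in replicate 1 and 8 in replicate 2, above the 3 that a count of 0 allows, beside 4660 and 3198 on the plus strand of the same place. They were thus 0.193% and 0.250% of the reads there.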

How the results depend on the processing

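The share of counted miRNA reads was 8.91% with minus-strand rows left out and 6.0% without Mir487b, a setting chosen after the data were seen. It moved by less than the SD between libraries in the other settings. With all members entered, the median level was 374 CPM. The spread of levels (2.65) was 2.98 with a minimum of 1 read and 2.69 without minus-strand rows. It was 2.61 up to Mir410 only and 2.46 without Mir487b, both chosen later. Without replicate 1 or replicate 2 it was 2.97 or 2.63. The rise without replicate 1 came with 1 more member passing the minimum, as did the rise at 1 read. Members called as higher in replicate 1 (16) numbered 10 with RLE size factors and 11 with TMM. At a fixed coefficient of 0.2 and at 1.5-fold or more, 0 members were called in either direction. The coefficient of 0.2 was assumed and not estimated from the pools, and its 0 calls follow from that value. The median log2 ratio stayed below 0 in all 7 settings tried, from -0.06 to -0.002. Between 30 and 35 members were detected under every setting. No member's level moved by more than its SD under TMM or RLE. With 2 libraries, the spread between pools is poorly known. How many reads aligning to several places were left out at each member was not tested.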

Other observations

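The following values were noticed in the data and were not tested. The 11 detected members from Mir379 to Mir666, the first part of the cluster, all had ratios below 0 with summed sense counts, with a median of -0.13. Over all 415 detected genes 250 lay below 0, with a median of -0.06. The border after Mir666 was set after the ratios were seen. Of the 23 from Mir543 to Mir3072, 11 lay below 0 and 12 above, with a median of 0.005. With TMM factors 8 of the first 11 lay below 0 and 3 above, and 10 and 13 of the others. With RLE size factors these counts were 8 and 3, and 9 and 14. Spearman's rho of the ratio with position was 0.28 over 34 members, as a description.

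The 3p strands of Mir300 and Mir381, both hairpins upstream of Mir487b, are alike in 19 of 22 bases, with G4A, U21G and C22U counted from the 5′ end of miR-300-3p. The first of these lies in the seed. Their 5p strands have different seeds.
miR-300-3p: uAUGCAAGggcaagcucucuuc
miR-381-3p: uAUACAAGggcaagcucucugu
Mir300 stood at 1115 and 1082 CPM, and Mir381 at 5009 and 4640 CPM.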
